A study of Mus musculus with 4 samples.

Results

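The following 10 genes, watched as signs of lost beta cell identity, were followed in pancreatic islets of Atf4 mutant mice: Aldh1a3, Cd81, Serpina7, Ldha, Slc16a1, Hk1, Neurog3, Sox9, Cck and Gast. They were taken by symbol, and all 10 were found among the 21594 gene symbols of the 4 count matrices. The mutants carried floxed Atf4 alleles with the driver Ins1Cre (Atf4F/F; Ins1Cre, n = 2 samples), and the controls carried Atf4F/F without Cre (n = 2 samples). Ins1Cre directs recombination to insulin-producing cells and no control carried it, so effects of the driver and of Atf4 loss cannot be told apart. All mice were 2 months old and had no treatment. The labels also say that tdT+ and tdT- cells were run together in every sample, while the strain entries list no tdT allele. Each sample was a pool, given as 2 males and 2 females in one place of the labels and as 3 to 4 mice in another, so p-values rest on the spread between pools. RNA was counted in single cells with an inDrops method, as unique molecular identifiers (UMIs, 1 per captured transcript).

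Mature beta cells keep a set of widely expressed genes silent, often called disallowed genes, among them those that would let lactate or pyruvate drive insulin release. Under metabolic stress beta cells can lose mature traits, and Aldh1a3, an enzyme that makes retinoic acid from retinaldehyde, is the best known marker of that state. Neurog3 and Sox9 are transcription factors of endocrine and duct progenitors, and Cck and Gast encode the gut hormones cholecystokinin and gastrin. Atf4 drives the transcriptional arm of the integrated stress response, which cells switch on when protein folding or amino acid supply fails.

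Clustering named 4124 of 6967 cells beta-like, with 840 and 946 cells in mutants 1 and 2 and 1247 and 1091 in controls 1 and 2. Their summed UMIs ranged from 9356286 to 12133754 per sample. Of 12 beta cell markers, Mafa had no UMI in mutant 2 and control 1, and the others were found in every sample. Beta-like cells of the mutants lay mostly in clusters led by Cdkn1a and Ccng1 and those of the controls in others, so the class compares different clusters. The targeted gene Atf4 gave 34 UMIs in beta-like cells of mutant 1 and 1139 in mutant 2, where controls 1 and 2 gave 3863 and 4562. Mutant 2 thus stood between mutant 1 and the controls, and the log2 change of Atf4 was −2.63 ± 0.98 SE (edgeR adjusted p = 0.265). Between 41 and 82 cell barcodes were shared by any pair of libraries (14 to 34 among kept cells).

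In beta-like cells 1 of the 10 genes, Aldh1a3, rose in the mutants, and none fell. Cd81 and Serpina7 stood higher in both mutants than in both controls, as 23.4% of all genes tested did, without passing the test. Hk1 stood at like levels in the groups, and Ldha, Slc16a1, Neurog3, Sox9, Cck and Gast had at most 10 UMIs in any sample. The test was edgeR's quasi-likelihood F test on counts summed per sample, with Benjamini-Hochberg adjustment over 13467 genes and a threshold of 0.05. In it 0.468% of all genes were called higher and 0.200% lower. The 6 genes with few counts did not pass its low-count filter, so 4 of the 10 were tested. Aldh1a3 passed that filter through its counts in the mutants. At an unadjusted p under 0.05, Cd81 and Serpina7 were higher too, and no member was lower. At that level 7.60% of all genes were higher and 6.69% lower, and since Aldh1a3 entered through the group where it is high, nothing is read from the number of members. DESeq2 called Aldh1a3, Cd81 and Serpina7 higher and none lower, and limma-voom called Aldh1a3 alone.

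**Figure D1:**
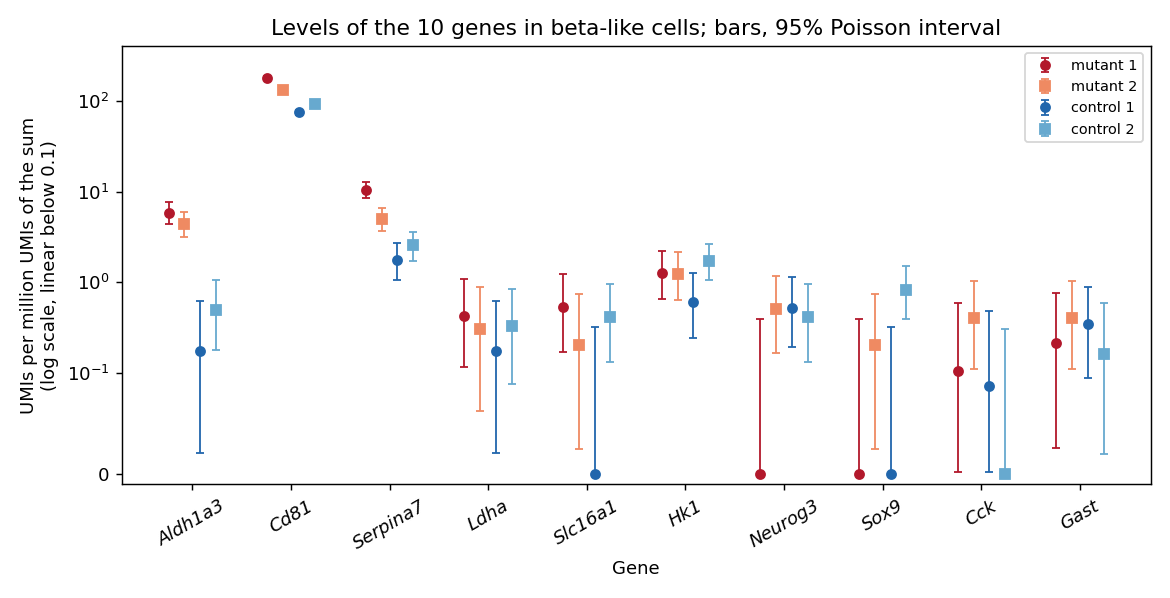
Level of each of the 10 genes in beta-like cells, as plain CPM, UMIs per 1e6 UMIs of the sample's sum (log axis, linear below 0.1), with 1 point per sample and 95% Poisson intervals that cover counting error only. Aldh1a3, Cd81 and Serpina7 show both mutants above both controls, while the intervals of Ldha, Slc16a1, Hk1, Neurog3, Cck and Gast overlap across groups.

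Aldh1a3 (chromosome 7, 66390890 to 66427517, minus strand, GRCm38, also named mm10) had 55 and 43 UMIs in the beta-like cells of mutants 1 and 2 and 2 and 6 UMIs in those of controls 1 and 2. As TMM-scaled CPM (counts per 1e6 counts, corrected for library composition) these were 5.49 and 4.39 against 0.188 and 0.496. The groups did not overlap, as was so in the same direction for 23.4% of all genes tested. The mean level was 4.94 ± 0.776 CPM in mutants and 0.342 ± 0.218 CPM in controls (SD, n = 2 per group), and the log2 change was 3.77 ± 0.44 SE (edgeR adjusted p = 0.0105). The ratio of the pooled UMI shares was 15.1, with a 95% counting interval of 7.36 to 35.9. The call ended without mutant 1, where the log2 change was 3.61 (edgeR adjusted p = 0.0815). In the controls the gene was at the limit of detection, so the size of the ratio is loosely fixed.

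The rise in Aldh1a3 was spread over few cells. A UMI was found in 33 of 840 cells of mutant 1 (3.93%, Clopper-Pearson 95% interval 2.72 to 5.47%) and in 20 of 946 cells of mutant 2 (2.11%, 1.30 to 3.25%). In the controls it was found in 2 of 1247 cells (0.160%, 0.0194 to 0.578%) and 6 of 1091 cells (0.550%, 0.202 to 1.19%). The share was thus higher in both mutants, and the exact permutation p of 0.333 is the smallest that 2 samples against 2 allow. Median depth was 7601 and 7644 UMIs per cell in the mutants, against 6372 and 7867 in the controls. With each cell thinned to 3000 UMIs the shares were 1.61% and 0.769% in the mutants, against 0.0294% and 0.245% in the controls (167, 183, 274 and 206 shallower cells of mutant 1, mutant 2, control 1 and control 2 left out). Some mutant cells held several copies. At least 2 UMIs were found in 8 cells of mutant 1 and 9 of mutant 2, with a highest cell of 8 and 10 UMIs, and in 0 cells of either control. The 3 highest cells gave 34.5% and 41.9% of the UMIs of mutants 1 and 2. Without them 36 and 25 UMIs remained, still above all UMIs of either control.

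The beta-like cells that held Aldh1a3 were among the deepest. Of its UMIs, 41 in mutant 1 and 41 in mutant 2 lay in 1 cluster of median depth 18530 UMIs per cell, led by Cdkn1a, Pdyn and Dapl1. They stood at 6.43 and 6.92 plain CPM there (divided by the summed UMIs, not TMM-scaled). A cluster of controls at a like depth, 18614 UMIs, stood at 0.305 and 0.478 plain CPM. In the other cluster led by Cdkn1a, of median depth 6392 UMIs, the mutants differed. Mutant 1 had 12 Aldh1a3 UMIs there (5.62 plain CPM) and mutant 2 had 1 (0.627). Beta-like cells with more than 8000 UMIs alone gave 5.63 and 5.19 plain CPM in mutants 1 and 2 and 0.233 and 0.302 in controls 1 and 2. Within the mutants, cells with an Aldh1a3 UMI had more Serpina7 (26.9 against 9.43 plain CPM in mutant 1, 26.6 against 3.96 in mutant 2) and more Cd81 (213.6 against 174.9, and 216.9 against 127.7) than the other beta-like cells. The Serpina7 values rest on 15 UMIs in 8 cells of mutant 1 and 12 UMIs in 5 cells of mutant 2. These are descriptions of 33 and 20 cells whose median depths, 15666 and 19609 UMIs, were above the 7253 and 7379.5 UMIs of the rest.

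Cd81 (chromosome 7, 143052739 to 143067934, plus strand) encodes a tetraspanin, a protein that organises receptors in the cell membrane, and has been described as a marker of immature and stressed beta cells. It had 1658 and 1292 UMIs in the beta-like cells of mutants 1 and 2 and 855 and 1114 in those of controls 1 and 2, or 165.5 and 131.9 against 80.2 and 92.1 TMM-scaled CPM. Every mutant value lay above every control value, as was so for 23.4% of all genes tested. The means were 148.7 ± 23.7 and 86.2 ± 8.37 CPM (SD, n = 2 per group), and the log2 change of 0.79 ± 0.15 SE had an edgeR adjusted p of 0.0602, just outside the threshold. With DESeq2 the adjusted p was 0.000694, scaled by library totals alone 0.0424, and without mutant 1 it was 0.248 at a log2 change of 0.62. A Cd81 UMI was found in 58.7% and 48.5% of beta-like cells of mutants 1 and 2 and in 33.9% and 44.7% in controls 1 and 2 (exact permutation p = 0.333). The gap between mutant 2 and control 2 was smaller than that between the 2 controls. Thinned to 3000 UMIs per cell, the shares were 36.7% and 26.3% against 17.0% and 21.1%. The annotated transcript R74862 overlaps Cd81 on the opposite strand, and whether the counting used strand is not given in the sources used here.

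Serpina7 (chromosome X, 139079257 to 139085236, minus strand) encodes thyroxine-binding globulin, a carrier of thyroid hormone in blood. It had 98 and 49 UMIs in mutants 1 and 2 and 20 and 31 in controls 1 and 2, or 9.78 and 5.00 against 1.88 and 2.56 TMM-scaled CPM. The groups did not overlap, as was so in this direction for 23.4% of all genes tested, and mutant 1 stood well above mutant 2. The means were 7.39 ± 3.38 and 2.22 ± 0.485 CPM (SD, n = 2 per group), and the log2 change of 1.72 ± 0.36 SE had an edgeR adjusted p of 0.0821. The adjusted p was 0.0322 with DESeq2 and 0.0482 when scaled by library totals alone. Without mutant 1 the log2 change was 1.16 (edgeR adjusted p = 0.369). Serpina7 was found in 8.21% and 3.49% of beta-like cells of the mutants and in 1.44% and 2.48% of those of the controls (exact permutation p = 0.333). Thinned to 3000 UMIs the shares were 2.65% and 1.26% against 0.436% and 0.943%. Endothelial-like cells, shallower at median depths of 2600 to 4098 UMIs, held it in 0 to 2.63% of cells, a range that includes both control shares.

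Start-site sequences of the pair that stood higher beside Aldh1a3 are shown because a binding site of Atf4 in them would be the first thing to look for. They come from RefSeq on GRCm38.p6, which had an entry for 8 of the 10 genes, and run from 250 bases before to 20 bases after the start site, 5′ to 3′ on the gene's strand. Capitals mark the TATA box core TATAAA. Cd81 lies at chr7:143052500-143052769 (plus strand) and Serpina7 at chrX:139085217-139085486 (minus strand).
Cd81: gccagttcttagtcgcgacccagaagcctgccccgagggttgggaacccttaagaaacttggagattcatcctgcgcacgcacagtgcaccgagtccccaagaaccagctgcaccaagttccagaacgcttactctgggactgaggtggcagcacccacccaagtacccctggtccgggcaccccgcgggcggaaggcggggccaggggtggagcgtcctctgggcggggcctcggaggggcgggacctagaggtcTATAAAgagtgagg
Serpina7: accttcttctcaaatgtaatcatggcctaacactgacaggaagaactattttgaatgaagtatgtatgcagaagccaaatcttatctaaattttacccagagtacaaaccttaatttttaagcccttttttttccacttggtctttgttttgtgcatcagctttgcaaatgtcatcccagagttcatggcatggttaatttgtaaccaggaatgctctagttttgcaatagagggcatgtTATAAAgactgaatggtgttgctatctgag
The core of the composite site bound by Atf4 with a C/EBP partner, TGATGNAA, was searched on both strands of the whole 300-base window. It was found in none of the entries of these 8 genes and in 3.97% of 32851 promoters of the same length. At so low a share, little can be read from its absence in 8 genes. Aldh1a3 and Sox9 had no entry, so their start sites were not searched. TATAAA, searched on both strands, was found in Cd81, Serpina7 and Gast, and in 13.6% of all promoters. In Cd81 it began 6 bases after the start site, and in Serpina7 10 bases before it, or 27 bases before a second Serpina7 start site that RefSeq lists. These are matches of letters, and the counts hold no measure of binding.

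The genes of lactate and glucose handling were near the floor in both groups. Ldha (chromosome 7, 46841475 to 46855627) encodes a subunit of lactate dehydrogenase. It had 4 and 3 UMIs in the beta-like cells of mutants 1 and 2 and 2 and 4 in those of controls 1 and 2. Slc16a1 (chromosome 3, 104638668 to 104658462) encodes the monocarboxylate transporter MCT1, which lets lactate and pyruvate into the cell. It had 5 and 2 UMIs in the mutants, against 0 and 5 in the controls. The 0 of 1247 cells in control 1 allows a share of up to 0.295% (Clopper-Pearson 95% interval). The groups overlapped for Slc16a1 and Ldha, and neither was tested. The pooled mutant to control ratio was 1.44 for Ldha (95% counting interval 0.413 to 5.17) and 1.72 for Slc16a1 (0.471 to 6.89). Changes of several fold were thus not detectable at this depth. Hk1 (chromosome 10, 62268855 to 62379908) encodes hexokinase 1, which phosphorylates glucose at low concentrations where the glucokinase of beta cells does not. It had 12 and 12 UMIs in the mutants, against 7 and 21 in the controls, or 1.20 and 1.23 against 0.657 and 1.74 TMM-scaled CPM. Both mutants lay between the controls. The log2 change of −0.01 ± 0.51 SE (edgeR adjusted p = 0.997) changed sign with the setting, and the pooled ratio was 1.06 (counting interval 0.586 to 1.89).

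The progenitor factors were as scarce. Neurog3 (chromosome 10, 62133090 to 62134763) starts the endocrine program in the embryo. It had 0 and 5 UMIs in the beta-like cells of mutants 1 and 2 and 6 and 5 in those of controls 1 and 2. Its 0 of 840 cells in mutant 1 allows a share of up to 0.357%. Sox9 (chromosome 11, 112782224 to 112787760), which marks duct and progenitor cells, had 0 and 2 UMIs in the mutants, against 0 and 10 in the controls. The 10 UMIs of control 2 were the highest value and came from 9 cells. The pooled ratios were 0.560 for Neurog3 (counting interval 0.152 to 1.75) and 0.246 for Sox9 (0.0262 to 1.16), so neither interval excluded equal levels. The hormone genes Cck (chromosome 9, 121489824 to 121495694) and Gast (chromosome 11, 100334407 to 100336996) were at the same floor. Cck had 1 and 4 UMIs in the mutants, against 1 and 0 in the controls. Gast had 2 and 4 in the mutants, against 4 and 2 in the controls. The pooled ratio for Gast was 1.23 (0.329 to 4.61), and for Cck, on 6 UMIs in all, 6.16 (0.689 to 291.2).

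The pools held both sexes, and some cells could be told apart by their sex-linked counts. Of 4124 beta-like cells, 1126 had Y-linked counts without Xist and 740 had Xist without Y-linked counts. The rest were not assigned. A single such UMI was enough to assign a cell, which deeper cells reach more easily. In beta-like cells with Y-linked counts but without Xist, Aldh1a3 stood at 9.24 and 7.77 plain CPM in mutants 1 and 2 (30 and 34 UMIs) and at 0.270 and 0.233 in controls 1 and 2 (1 UMI each). The log2 change there was 4.86 (edgeR adjusted p = 0.0106). In cells with Xist but without Y-linked counts it stood at 2.49 and 1.40 plain CPM in the mutants (7 and 3 UMIs) and at 0.390 and 0.451 in the controls (1 UMI each). These were too few counts for the filter. The mutants were above the controls in cells of either sex, and higher in male than in female cells in both mutants. That difference between the sexes was not tested, and cells of 1 sex come from at most a pair of mice per pool by the series' design. Serpina7 showed 14.8 and 6.63 plain CPM in male mutant cells against 1.89 and 4.19 in male controls, and 3.55 and 3.28 in female mutant cells against 1.95 and 0.451 in female controls. Cd81 showed 198.0 and 136.5 plain CPM in male mutant cells against 67.3 and 100.6 in male controls, and 153.1 and 126.8 in female mutant cells against 87.3 and 96.9 in female controls. Atf4 differed between the same cells of mutant 2, with 185.2 plain CPM in male and 9.83 in female cells, and was at 3.70 and 1.42 in mutant 1.

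Mutant 2 also allowed a view of cells with and without Atf4 RNA inside 1 library. Among its beta-like cells with more than 8000 UMIs, 234 had no Atf4 UMI and 134 had at least 3. Aldh1a3 stood at 5.79 plain CPM in the cells without Atf4 (Poisson 95% interval 3.67 to 8.69) and at 4.62 in those with at least 3 (2.39 to 8.07, 12 UMIs in 5 cells). Both lay above the 0.268 and 0.231 of control cells with at least 3 Atf4 UMIs (0.0325 to 0.968 and 0.0280 to 0.835). Cd81 stood at 162.0 plain CPM without Atf4 (149.7 to 175.0) and at 106.6 with it (94.4 to 119.9), beside 75.6 and 92.2 in such cells of controls 1 and 2. Serpina7 stood at 7.31 without (4.89 to 10.5) and at 2.31 with it (0.847 to 5.03), beside 1.88 and 2.54 in the controls. For Cd81 and Serpina7 the cells of mutant 2 that held Atf4 were thus nearer to the controls, while for Aldh1a3 the intervals of the 2 kinds of cell overlapped widely. There was 1 library, so no test was made, and intervals cover counting error only. Median depths were 15166 and 18129.5 UMIs, and the Atf4 counts fell unevenly over the sexes.

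**Figure D2:**
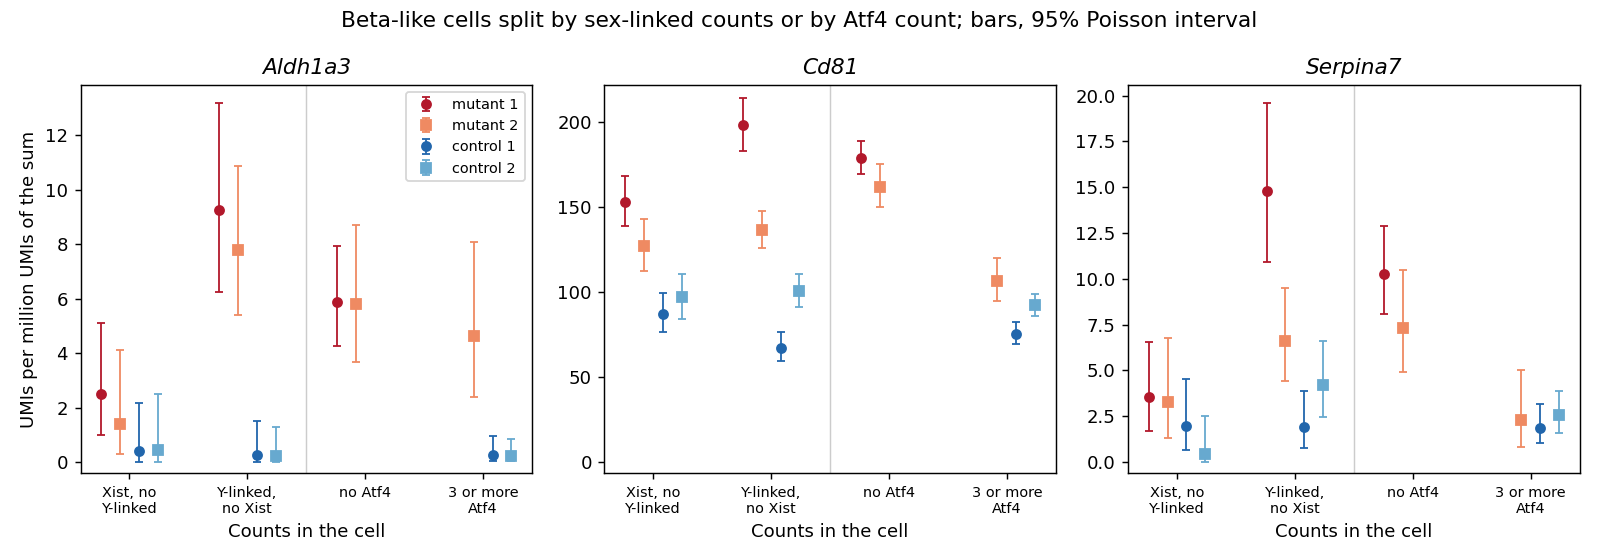
Levels of Aldh1a3, Cd81 and Serpina7 in beta-like cells, as plain CPM (linear axes), split by sex-linked counts (left of the line) or, in cells with more than 8000 UMIs, by Atf4 count (right), with 95% Poisson intervals and sets of under 50 cells left out. Aldh1a3 is highest in male cells of the mutants (9.24 and 7.77), and Cd81 and Serpina7 of mutant 2 lie nearer to the controls in cells with 3 or more Atf4 UMIs.

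Outside beta-like cells the 10 genes were read as levels per class and as a possible source of carried RNA. The members that passed the low-count filter were Cd81, Serpina7 and Hk1 in alpha-like cells and Cd81, Neurog3 and Sox9 in delta-like cells. In endothelial-like cells they were Cd81, Ldha and Hk1. Aldh1a3 passed it in none of these classes, and members that did not pass were not tested. Of those tested, none was called in alpha-like cells (0.0988% of genes higher and 0.138% lower by edgeR), delta-like cells (0.182% and 0.124%) or endothelial-like cells (0.0217% and 0%). At an unadjusted p under 0.05, 1 was higher, Sox9 in delta-like cells, where 5.01% of all genes were, and no other tool was run there. Other classes had fewer than 20 cells in some sample and were not tested. Those fits rest on fewer cells, so they do not show that the genes were unchanged.

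Aldh1a3 outside beta cells was clearest in delta-like cells, which make somatostatin. They stood at 15.2 and 3.05 plain CPM in mutants 1 and 2 (19 and 6 UMIs) and at 2.08 and 5.98 in controls 1 and 2 (4 and 8 UMIs). The groups overlapped, and mutant 1 was the high sample. The delta-like class joined unlike clusters. In 430 cells, led by Sst but also by Ppy and Pyy, delta markers averaged 5.00% of UMIs and beta cell markers 29.5%. In the other 368 cells these were 17.6% and 3.86%. Levels of Aldh1a3, Neurog3 and Sox9 were not taken for these clusters apart. The classes also held beta cell RNA, with beta cell markers at 16.5 to 25.05% of UMIs in delta-like, 8.13 to 12.2% in alpha-like, 19.7 to 32.3% in endothelial-like and 16.1 to 28.1% in macrophage-like cells, and its part in their levels was not tested. Control delta-like cells held more Aldh1a3 per UMI than control beta-like cells, at 0.175 and 0.495 plain CPM. Alpha-like cells had 2, 0, 0 and 2 UMIs in mutant 1, mutant 2, control 1 and control 2, and endothelial-like cells had none. For the latter, 0 of 114 cells in control 2, the most cells, allows up to about 2.63%, at a median depth of 4098 UMIs. That limit is approximate and is not a Clopper-Pearson one. The test of the difference between the mutant effects in beta-like and alpha-like cells gave 4.25 ± 1.87 SE for Aldh1a3, with an edgeR adjusted p of 0.713 on those few counts.

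Cd81 was present in every class and lowest in beta-like cells of the controls. In the controls it stood at 74.7 and 91.8 plain CPM in beta-like, 249.2 and 214.5 in alpha-like, 186.4 and 222.6 in delta-like and 459.1 and 408.2 in endothelial-like cells. Alpha-like and delta-like cells did not differ beyond their spread. Macrophage-like cells stood at 246.0 and 541.8 plain CPM in mutants 1 and 2 and at 329.6 and 516.2 in controls 1 and 2, so they and endothelial-like cells had no fixed order. In the mutants beta-like cells stood at 177.2 and 131.8, alpha-like cells at 228.9 and 205.1, delta-like at 216.4 and 216.3 and endothelial-like at 648.9 and 482.9. Both mutants thus lay above both controls in beta-like and in endothelial-like cells. In beta-like cells this was so for 23.4% of all genes tested, and in endothelial-like cells that share was not taken. The log2 change was −0.13 ± 0.15 SE in alpha-like (edgeR adjusted p = 0.838), −0.0039 ± 0.15 in delta-like (0.997, and above 0 when scaled by library totals alone) and 0.33 ± 0.26 in endothelial-like cells (0.962). The mutant effect in beta-like cells exceeded that in alpha-like cells by 0.89 ± 0.15 SE on the log2 scale (edgeR adjusted p = 0.0160), a test that called 0.157% of 13381 genes in either direction. Scaled by library totals alone the difference was 0.98 (adjusted p = 0.00362).

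Apart from the 6 stellate-like cells of control 2 (206.8 plain CPM), Serpina7 was highest in an unnamed cluster led by the hormones Ppy and Pyy. It stood there at 91.3 and 27.8 plain CPM in mutants 1 and 2 and 90.1 and 29.8 in controls 1 and 2. These rest on 19 Serpina7 UMIs in the mutants and 29 in the controls. Mutant 2 and control 2 were the thinnest, with 15 and 10 cells and 72035 and 67188 UMIs of all genes. Alpha-like cells followed at 21.2 and 10.3 in the mutants, against 25.1 and 7.12 in the controls. Delta-like cells stood at 16.8 and 6.11 against 5.71 and 5.23, with beta-like cells of the controls the lowest of the 3. Both mutants thus lay above both controls in delta-like cells too, mutant 2 by little. Serpina7 did not pass the low-count filter there and was not tested. In the Ppy-led cluster and in alpha-like cells mutant 1 and control 1 were the high samples, and the groups overlapped. The difference of the effects between beta-like and alpha-like cells was 1.75 ± 0.52 SE (edgeR adjusted p = 0.376).

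**Figure D3:**
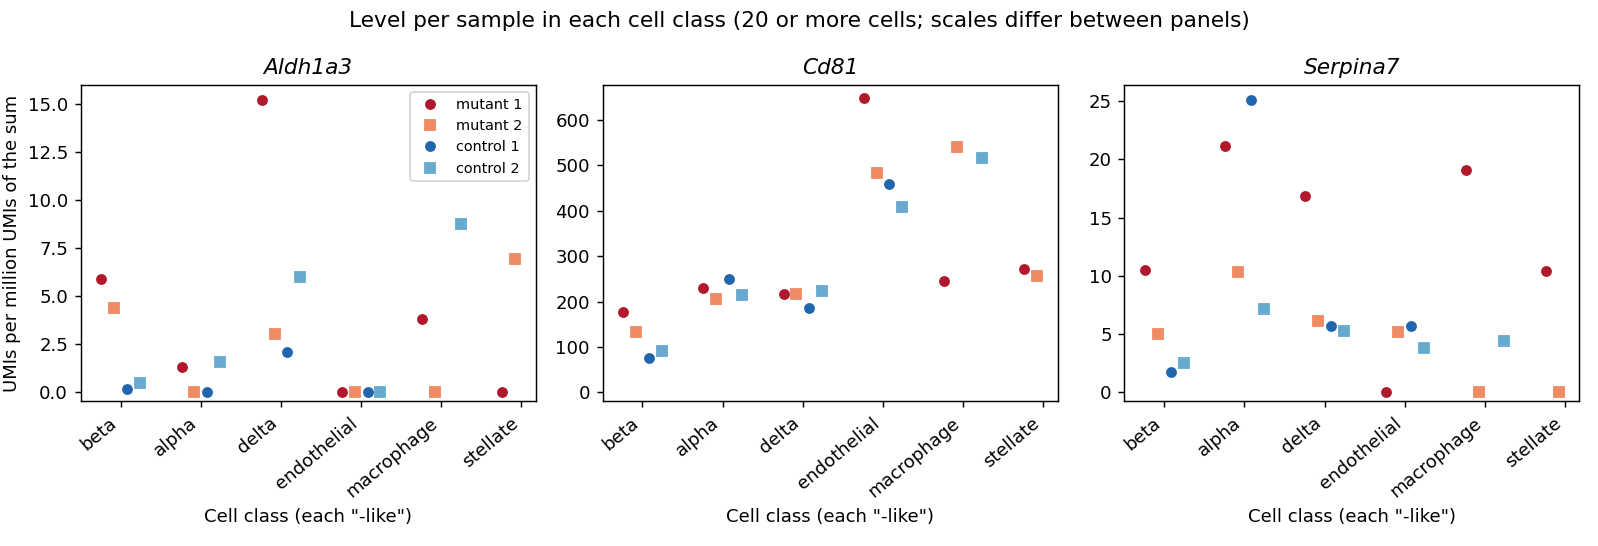
Plain CPM of Aldh1a3, Cd81 and Serpina7 per sample in 6 cell classes (linear axes of unlike range), for samples with at least 20 cells in the class. Mutants lie above controls in beta-like cells for all 3 genes, and in alpha-like cells the groups overlap. Both mutants also lie above both controls for Serpina7 in delta-like and for Cd81 in endothelial-like cells.

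The genes that were near the floor in beta-like cells had levels elsewhere. Ldha stood at 108.1 and 83.1 plain CPM in endothelial-like cells of mutants 1 and 2 and at 119.0 and 60.9 in those of controls 1 and 2. In macrophage-like cells it stood at 160.2 and 103.2 against 62.8 and 48.1, and in alpha-like cells at 0 to 1.58. Hk1 stood at 45.5 and 33.8 against 68.0 and 17.8 in endothelial-like and at 19.2 and 19.7 against 22.9 and 18.2 in alpha-like cells, both above the 0.611 to 1.73 of beta-like cells. Slc16a1 reached 7 UMIs in the alpha-like cells of mutant 1 and 8 in its macrophage-like cells, and had at most 5 in any other class and sample. Neurog3 was most frequent in delta-like cells, at 8.82 and 19.3 plain CPM in mutants 1 and 2 and 8.31 and 18.7 in controls 1 and 2. Its groups overlapped fully, and the log2 change was 0.13 ± 0.41 SE (edgeR adjusted p = 0.965). Sox9 stood at 19.2 and 13.2 plain CPM in delta-like cells of the mutants and at 4.15 and 10.5 in those of the controls. Both mutants lay above both controls there, with a log2 change of 1.11 ± 0.44 SE that did not pass (edgeR adjusted p = 0.460). The share of all genes with that order in delta-like cells was not taken. An unnamed cluster of 10 cells led by Spp1, Clu and Muc1 held 17 more Sox9 UMIs, 2 in mutant 1, 14 in mutant 2 and 1 in control 2, and Sox9 was among the genes that led it. Cck had 8 UMIs in alpha-like cells of mutant 2, all in 1 cell, and Gast at most 4 in any class and sample.

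**Figure D4:**
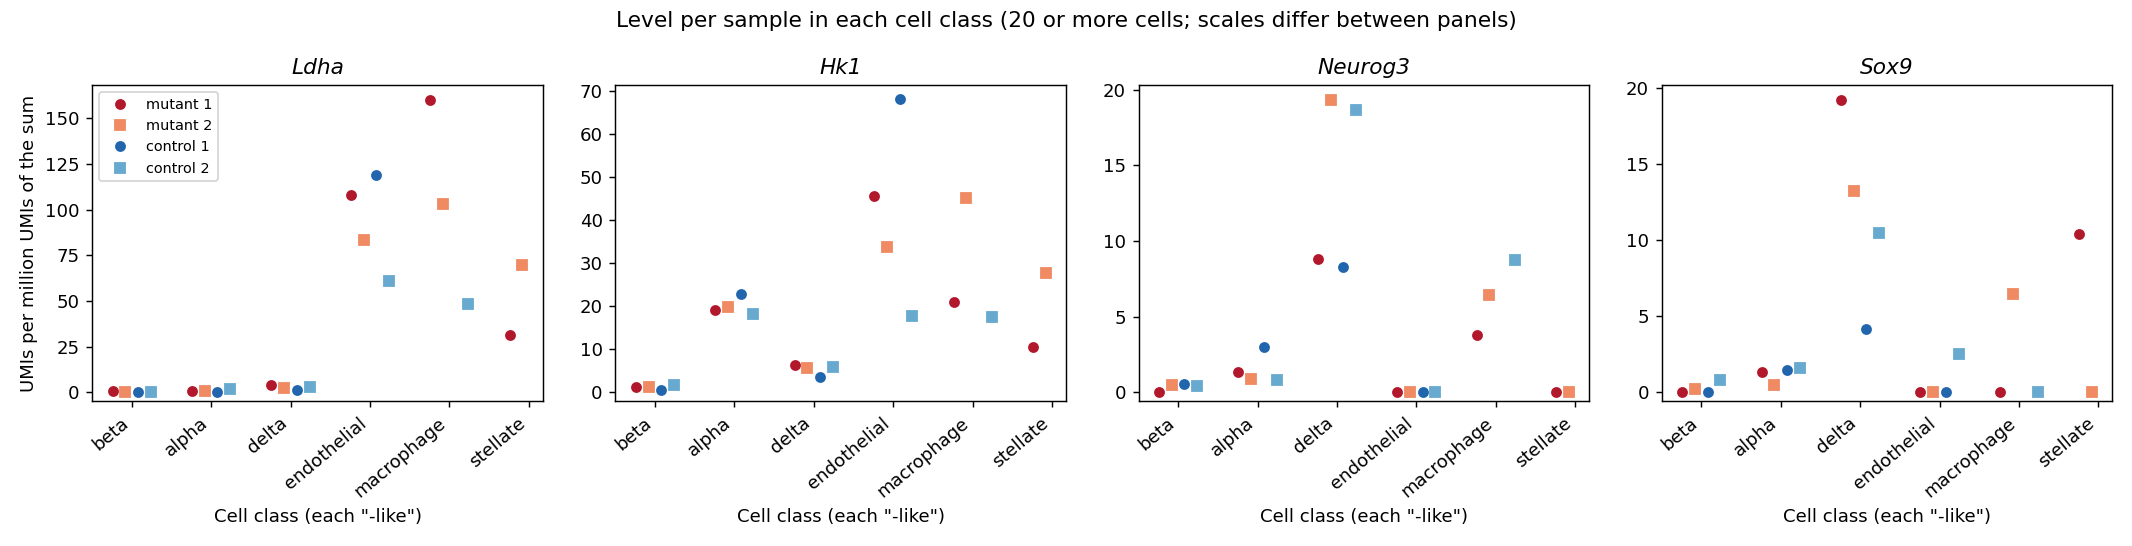
Plain CPM of Ldha, Hk1, Neurog3 and Sox9 per sample in 6 cell classes (linear axes of unlike range), for samples with at least 20 cells in the class. Beta-like cells are lowest or near 0 for each gene, Ldha and Hk1 are higher in endothelial-like and macrophage-like cells, and Neurog3 and Sox9 in delta-like cells.

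How much RNA of other cells could lie in beta-like barcodes was gauged from the markers of each class. Summed marker levels in beta-like cells were 0.987 to 1.68% of those in alpha-like cells, 1.0 to 2.2% of those in delta-like, 0.257 to 0.409% of those in endothelial-like and 0.636 to 2.08% of those in macrophage-like cells over the 4 samples. Markers of pancreatic polypeptide cells stood at 0.242 to 0.702% of their level in the Ppy-led cluster. No endothelial marker of the 12 was at 0 in any beta-like sum. A gene carried in the same share would reach its own level in that class times this share. For Aldh1a3 this product was at most 0.152 plain CPM from delta-like and 0.182 from macrophage-like cells, against 5.88 and 4.39 measured in the beta-like cells of mutants 1 and 2. For Serpina7 it was at most 0.269 from alpha-like cells and 0.338 from the Ppy-led cluster, and for Cd81 at most 10.7 from macrophage-like cells, against 10.5 and 5.00 and against 177.2 and 131.8 measured. Products for Ldha were 0.249 to 0.348 from endothelial-like and 0.656 to 1.96 from macrophage-like cells. The measured 0.175 to 0.428 plain CPM of Ldha in beta-like cells lay under the macrophage-like product in every sample. For Neurog3 the delta-like product was 0.0883 to 0.412, beside 0 to 0.524 measured. Beta cells may express some markers themselves, so the products are rough. In beta-like cells with no UMI of any non-islet marker, 94 to 163 per sample, Aldh1a3 had 2 UMIs in mutant 1 and 0 in the others, and Serpina7 had 3 and 3 in the mutants, against 0 and 0 in the controls.

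Some markers of other cells moved with the groups. Summed markers of acinar cells, which make digestive enzymes, had 30.7 and 26.5 plain CPM in the beta-like sums of mutants 1 and 2 and 95.4 and 157.0 in those of controls 1 and 2. Macrophage markers had 67.3 and 96.8 against 131.6 and 133.6, and alpha cell markers 2242 and 2937 against 1787 and 1971. Their part in the levels of the 10 genes was not tested beyond the products above. An unnamed cluster led by digestive enzyme genes held 164 and 257 cells of controls 1 and 2 and 7 and 29 of the mutants, and 47.4% of its UMIs were of beta cell markers. Counted with the beta-like cells, in a setting added after the data were seen, it left Aldh1a3 at a log2 change of 3.87 (edgeR adjusted p = 0.0161).

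Over 9 related lists 0 genes passed edgeR in either direction, and the median log2 change of all 13467 genes was 0.01, which scaling by library totals alone moved to 0.11. Of all genes, 7.60% were higher and 6.69% lower at an unadjusted edgeR p under 0.05, the background for the counts of each list. Among 11 tested genes of the retinoid pathway, in which Aldh1a3 acts, none was higher and 2 were lower at an unadjusted p under 0.05, with a median of −0.22. The carrier Rbp4 stood at 27.2 and 46.4 TMM-scaled CPM in the mutants, against 70.9 and 92.8 in the controls (log2 change −1.15, edgeR adjusted p = 0.0725), and DESeq2 and library totals each called 1 gene of the list lower. The receptor Rxra had a log2 change of −0.40 (0.266). Of 17 tetraspanins other than Cd81, 0 were higher and 5 lower unadjusted (median −0.17), led by Tspan17 (−0.59, adjusted p = 0.189) and Tspan3 (−0.36, 0.245). Of 6 genes of thyroid hormone handling 2 were higher and 1 lower unadjusted (median 0.27), with Thra at −0.54 (0.105) and the carrier Ttr at 0.44 (0.155). DESeq2 and limma-voom called 0 in these last 2 lists.

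Of 13 other disallowed genes 1 was higher and 0 lower unadjusted, beside 7.60% and 6.69% of all genes. The median of the list was −0.06 and turned to 0.04 when scaled by library totals alone. Gas6, a secreted ligand of receptor tyrosine kinases, had 6.79 and 5.72 against 3.85 and 3.80 TMM-scaled CPM (log2 change 0.71, edgeR adjusted p = 0.224). Of 29 genes of glucose entry, glycolysis and lactate 1 was higher and 3 lower unadjusted (median −0.13), with Pdk2, a kinase that curbs pyruvate dehydrogenase, at −0.64 (0.146) and Bsg, a partner of lactate transporters, at −0.35 (0.243). Of 20 endocrine progenitor and duct genes 1 was higher and 4 lower unadjusted, with a median of −0.09 that turned to 0.01 with library totals. Spp1 had 33.1 and 8.48 TMM-scaled CPM in the mutants, against 1.97 and 4.55 in the controls (log2 change 2.65, edgeR adjusted p = 0.102), with mutant 1 far above the rest, and Notch1 had −0.71 (0.106). Of 5 gut peptide genes and receptors 1 was higher and 0 lower unadjusted (median 0.06), with Nucb2 at 0.50 (0.179) and Glp1r at 0.41 (0.573). DESeq2 and limma-voom called 0 in these 4 lists, and library totals called 1 progenitor or duct gene higher.

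Of 23 beta cell identity genes 2 were higher and 5 lower unadjusted, beside 7.60% and 6.69% of all genes. The median of the list was −0.10, which library totals moved to −0.00013. The prohormone convertase Pcsk1 had 246.8 and 246.8 TMM-scaled CPM in the mutants, against 159.5 and 168.9 in the controls (log2 change 0.59, edgeR adjusted p = 0.0725), and the channel Trpm5 had −0.67 (0.125). DESeq2 called 1 higher and 1 lower, library totals 1 higher and limma-voom 0. Of 27 targets of Atf4, 0 were higher and 17 lower unadjusted (median −0.43), led by asparagine synthetase, Asns (−1.13, edgeR adjusted p = 0.0661), and the serine synthesis enzyme Psph (−1.07, 0.0725). DESeq2 called 2 of them lower, library totals 4 and limma-voom 0.

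The genes most like each member in pattern were sought over 16 sums, those of 4 samples in beta-like, alpha-like, delta-like and endothelial-like cells, by Pearson r of log2(CPM + 1) among 11148 genes. The sums share libraries and differ in depth, so r mostly follows the order of the classes and is a description. For Cd81 the nearest were Plk2 (0.97), Itm2b (0.96) and Rhoc (0.96). For Ldha they were Egfl7, B3gnt2 and Plpp3 (0.99 each), and for Hk1 Amotl1 (0.97), Tfpi (0.96) and Colgalt2 (0.96). For Serpina7 they were Mrpl33 (0.90), Lap3 and 4933439C10Rik (0.89 each). For Neurog3 they were Efna5 (0.94), Igsf5 and Syt1 (0.92 each), and for Sox9 Ambp (0.93), Oit1 and Syt1 (0.92 each). Aldh1a3, Slc16a1, Cck and Gast had too few counts for this.

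**Figure D5:**
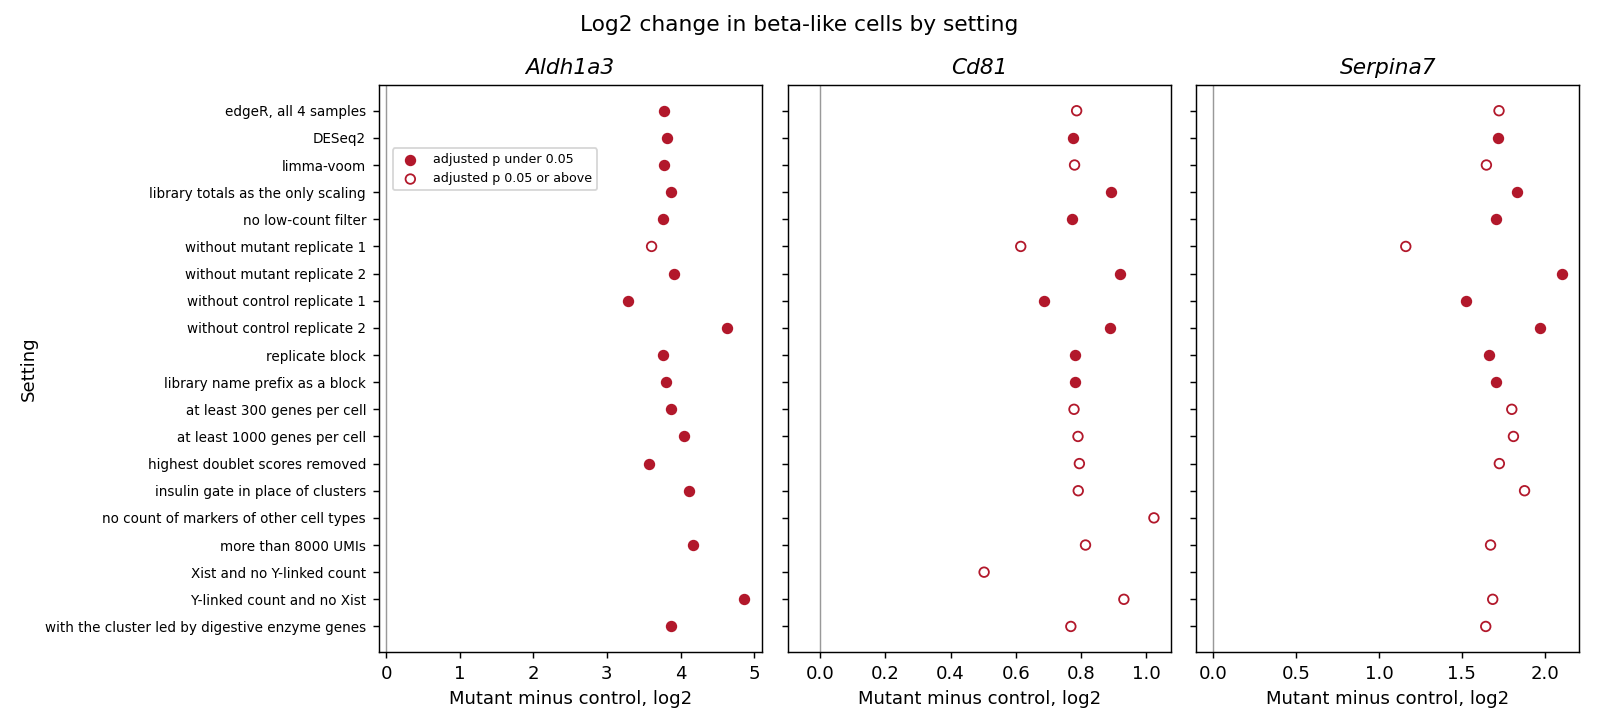
Log2 change of Aldh1a3, Cd81 and Serpina7 in beta-like cells (mutant minus control, linear axes) under each setting, filled where the adjusted p was under 0.05 and absent where the gene was not tested. All values are above 0; Aldh1a3 is filled in every setting shown but the one without mutant 1, and Cd81 and Serpina7 in 8 settings each.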

How the data were processed

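The 4 matrices the authors deposited give whole-number UMI counts, with genes as symbols and cells as barcodes. Per the submitters' processing notes the authors used the genome build mm10 and Seurat, with no version given. Per the labels' protocols 10% human K562 cells were added, and they cannot be called among mouse genes. The members and gene lists were chosen with earlier results of these data known.

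Barcodes (11114 in all) entered with 500 or more detected genes and a mitochondrial share of UMIs below 20%. Scrublet marked 28 of 6995 (0.400%), too few to have worked, so doublets probably remain. Total UMIs per sample ranged from 13706563 to 17655893. Cells were scaled, logged, reduced with 2000 variable genes to 30 components and clustered (Leiden, 15 neighbours, resolution 1; Python 3.11.15, scanpy 1.11.5), and clusters were named by markers, with a rule set once clusters were seen. The names are rebuilt and may differ from the authors' own.

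For each class, raw counts were added up within a sample. The sums were compared in edgeR 4.0.16 (R 4.3.3, filterByExpr, TMM, quasi-likelihood F test, Benjamini-Hochberg over all tested genes, threshold 0.05). DESeq2 1.42.0 and limma-voom (limma 3.58.1) were alternatives, with other scalings, filters, cell sets, blocks and samples left out. No library was a copy of another: over genes, replicates gave a chi-square of 10.7 (mutants) and 13.8 (controls) for each degree of freedom. The fits were tested on simulated data. Shares of cells were compared by exact, 2-sided permutation of the 4 samples. All 10 members are named. Of each list the 2 genes with the lowest p are named, since none passed, except 1 gene that is not reported here. A cell with few reads can miss a transcript it holds, and counts cannot tell fewer expressing cells from less RNA per cell. Positions are from GENCODE vM21.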

Additional observations from a re-analysis of the deposited data

Results flagged for a closer look

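The mutant effect on Cd81 differed between cell classes: in beta-like cells it exceeded that in alpha-like cells by 0.89 on the log2 scale (SE 0.15, edgeR adjusted p = 0.0160). Higher in 2 of 2 mutants than in either control in beta-like cells, Cd81 overlapped between the groups in alpha-like cells. Both mutants also lay above both controls in endothelial-like cells, and a difference from that class was not tested.

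In cells outside the comparisons, 3 ratios of pooled UMI shares had a 95% counting interval wholly above 1, with both mutants above both controls. They were picked from all members with UMIs in both groups, over the sets of cells that no fit covered. The share of all genes that meets this rule there was not taken, so nothing is read from their number. In beta-like cells both mutants lay above both controls for 23.4% of all genes tested. For Cd81 in barcodes left out for having under 500 genes, the ratio was 1.30 (95% counting interval 1.04 to 1.63, 153 against 166 UMIs). For Cd81 in the cluster led by digestive enzyme genes it was 2.44 (1.60 to 3.60, 31 against 156 UMIs), from 7 and 29 mutant cells. For Ldha in macrophage-like cells it was 2.87 (1.66 to 5.32, 100 against 15 UMIs), from 94 and 38 mutant cells and 17 and 31 control cells. Only rises were sought. Ldha in stellate-like cells went the other way, at 0.0930 (0.0368 to 0.247), with 4 and 6 cells in controls 1 and 2. These intervals cover counting error only and leave out the spread between pools. The macrophage-like cluster was led by H2-Aa, H2-Eb1 and Cd74 and also by the B cell gene Igkc. Summed B cell markers in it had 740.0 and 690.1 plain CPM in mutants 1 and 2 against 188.3 and 96.2 in controls 1 and 2, and T cell markers 257.5 and 12.9 against 141.3 and 0. Their part in the Ldha ratio of macrophage-like cells was not tested.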

How the results depend on the processing

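Aldh1a3 kept its direction in all 17 alternatives that tested it and its call in 16. With 1 sample left out its log2 change ranged from 3.28 to 4.63, the number of members called higher from 0 to 3, the genes called higher from 22 to 347 and those called lower from 12 to 234 (main values 3.77, 1, 63 and 27). Without mutant 1 no member was called. With either control left out, edgeR shrank all genes to 1 shared spread, so those calls do not measure stability, and the lone sample is assumed to vary like the others. The replicate block, whose numbers did not pair the samples (correlation of deviations −0.06), called 155 genes higher, 94 lower and 3 members. The block by library name prefix called 266, 196 and 3. DESeq2 called 134 higher, 103 lower and 3 members, no low-count filter 122, 72 and 3, and library totals 149 higher and 3 members. Cells with no count of non-islet markers gave 10 higher, 8 lower and 0 members, where Aldh1a3 had too few counts to test. Cells with over 8000 UMIs gave 40 higher and 16 lower, cells with a Y-linked count 11 and 4, and the added cluster of digestive enzyme genes 38 and 6. Cells with Xist gave 115 lower and 0 members, where Aldh1a3 again could not be tested. The 3 members called in any setting were Aldh1a3, Cd81 and Serpina7; the cause of each shift was not tested. Hk1 turned sign with the setting. Some of these values were close to 0: 0.000493 with DESeq2, 0.085 with library totals, 0.058 with the replicate block, 0.047 with the prefix block and 0.043 with the highest doublet scores removed. Others were larger, at 0.14 with limma-voom and 0.37 with the insulin gate. With 1 sample left out Hk1 ranged from −0.52 to 0.87, so it depended on which pool was left out. Cd81 in delta-like cells turned to 0.085 with library totals. Thinning to 3000 UMIs moved the difference in share from 2.67 to 1.05 percentage points for Aldh1a3 and from 3.89 to 1.27 for Serpina7. Depth leaves 6 members untested.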
